A study of Mus musculus with 6 samples.

Results

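The tumour necrosis factor (TNF) genes described here are 10: the ligand gene Tnf, the receptor genes Tnfrsf1a and Tnfrsf1b, the adaptor genes Traf1, Traf2, Traf3 and Traf6, the ubiquitin ligase genes Birc2 and Birc3, and Tnip1, an inhibitor of the pathway. They were taken by name, and each matched 1 of the 55487 genes in the count table. All 10 were among the 15774 genes that passed the filter on low counts. The RNA came from Ly6G-positive neutrophils that were sorted by flow cytometry from the lungs of mice. The mutant group held 3 libraries from Mrp8-Cre;TGFbR2-fl/fl mice, and the wt group held 3 libraries from TGFbR2-fl/fl littermates without Cre. Both groups therefore carried the loxP-flanked allele (Tgfbr2tm1Karl), and the mutants also carried the transgene Tg(S100A8-cre,-EGFP)1Ilw, in which the S100A8 (Mrp8) promoter, active in neutrophils and their precursors, drives Cre and EGFP. The age of the mice was not among the labels, nor which mouse or mice gave each library. The p-values here weigh the difference between groups against the spread of libraries within a group, and that spread may be only technical.

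Library totals ran from 30403494 to 35906780 counts. Tgfbr2, the targeted gene, was at 176 to 205 CPM (read counts scaled to a common library size by TMM) in mutants and 185 to 201 CPM in wt. Its counts pool all exons while the allele flanks only part of the gene, so this level does not check the genotype labels. All 12 neutrophil markers had counts, led by Csf3r at 7681 to 9225 CPM. Ly6g itself, the gene of the sorting marker, was at 14.4 to 35.2 CPM.

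TNF is made as a membrane protein, is cut from the cell surface by a protease, and signals through TNFR1 (Tnfrsf1a), which carries a death domain, and TNFR2 (Tnfrsf1b), which does not. TRAF2, alone or with TRAF1, brings the ligases cIAP1 (Birc2) and cIAP2 (Birc3) to the receptors. These ligases attach ubiquitin chains on which NF-kB kinases are activated. TRAF3 with the cIAPs holds the alternative NF-kB pathway in check, TRAF6 serves Toll-like and interleukin 1 receptors, and ABIN-1 (Tnip1) works with the deubiquitinase A20 to end the signal. Neutrophils both make TNF and respond to it with priming, adhesion and changes in survival.

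Start regions are shown for Tnf, the ligand gene, for Traf1, the member whose groups stood apart, and for Traf3 and Tnip1, the members with a match to the NF-kB consensus. RefSeq start regions (GRCm38.p6) matched all 10 genes, with 11 starts in all. The 250 bases before each start were searched on both strands for the NF-kB consensus decamer, for the TATA box TATAAA, for the GC box GGGCGG, for the ETS core CCGGAA and for the AP-1 site TGANTCA. The 4 windows below are written 5′ to 3′ on the gene's strand, with matches to the NF-kB consensus in capitals. The Tnf window (chr17:35202008-35202257, minus strand), the Traf1 window (chr2:34961773-34962022, minus strand), the Traf3 window (chr12:111166120-111166369, plus strand) and the Tnip1 window (chr11:54962941-54963190, minus strand) held 0 bases of annotated exons.
Tnf: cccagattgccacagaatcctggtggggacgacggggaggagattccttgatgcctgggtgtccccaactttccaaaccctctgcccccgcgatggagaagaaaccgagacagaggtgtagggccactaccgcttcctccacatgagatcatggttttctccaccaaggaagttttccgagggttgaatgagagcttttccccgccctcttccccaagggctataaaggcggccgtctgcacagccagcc
Traf1: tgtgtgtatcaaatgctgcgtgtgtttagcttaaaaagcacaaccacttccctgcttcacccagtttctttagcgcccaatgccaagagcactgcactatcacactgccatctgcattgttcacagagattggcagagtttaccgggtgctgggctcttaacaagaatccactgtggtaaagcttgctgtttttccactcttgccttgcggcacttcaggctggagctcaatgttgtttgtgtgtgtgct
Traf3: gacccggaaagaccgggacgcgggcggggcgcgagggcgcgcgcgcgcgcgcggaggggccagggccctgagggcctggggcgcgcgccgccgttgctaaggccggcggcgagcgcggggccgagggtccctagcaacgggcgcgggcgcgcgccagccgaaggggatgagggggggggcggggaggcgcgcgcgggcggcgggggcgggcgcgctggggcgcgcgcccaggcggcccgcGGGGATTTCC
Tnip1: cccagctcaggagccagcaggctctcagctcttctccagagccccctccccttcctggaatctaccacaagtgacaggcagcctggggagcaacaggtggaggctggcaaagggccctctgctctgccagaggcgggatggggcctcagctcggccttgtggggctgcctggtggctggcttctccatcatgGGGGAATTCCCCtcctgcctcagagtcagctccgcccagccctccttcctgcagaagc
The NF-kB consensus matched in 2 of the 10 genes, against 3.9% of 32851 start regions of the same length. Tnip1 held 3 overlapping matches in 1 run of bases that begins 58 bases before the start, and Traf3 held 1 match that begins 10 bases before it. The Tnf window held no match to that consensus, but a TATA box 29 bases before the start, a motif found in 12.4% of all start regions. The GC box was in 6 of the 10 genes, Tnf, Traf3 and Tnip1 among them, against 32.7% of all start regions, and the ETS core was in 5 against 12%. The AP-1 site was in 0 of the 10, against 6.75%, and the Traf1 window held none of the 5 motifs. The matches do not overlap one another except within the Tnip1 run. A match describes letters only, and windows without one say nothing of sites elsewhere.

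Levels were compared between genes per length, as RPKM (TMM-scaled CPM per 1000 bases of summed exon length). The receptors stood highest. Tnfrsf1a was at 464 ± 26.6 RPKM and Tnfrsf1b at 332 ± 24.4 RPKM (SD, n = 6 libraries), above 99.4% and 99.1% of tested genes. Birc3 followed at 130 ± 13.0 RPKM. The 6 values of each of these 3 genes lay clear of those of the next gene. Tnf was at 28.1 ± 8.33 RPKM, Tnip1 at 18.3 ± 1.69 RPKM and Birc2 at 16.0 ± 2.76 RPKM, and the ranges of neighbours overlapped in this run. The adaptor genes were lowest, with Traf1 at 7.99 ± 1.602 RPKM, Traf2 at 6.06 ± 0.976 RPKM, Traf3 at 5.82 ± 0.727 RPKM and Traf6 at 4.01 ± 0.437 RPKM, the last above 65.1% of tested genes. Values of Traf1 overlapped with those of Traf2, and those of Traf2 with those of Traf3, while Birc2 and Traf1 did not overlap, nor did Traf3 and Traf6. RPKM depends on the annotated exon length, which was 8819 bases for Traf1 and 1639 bases for Tnf.

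**Figure D1:**
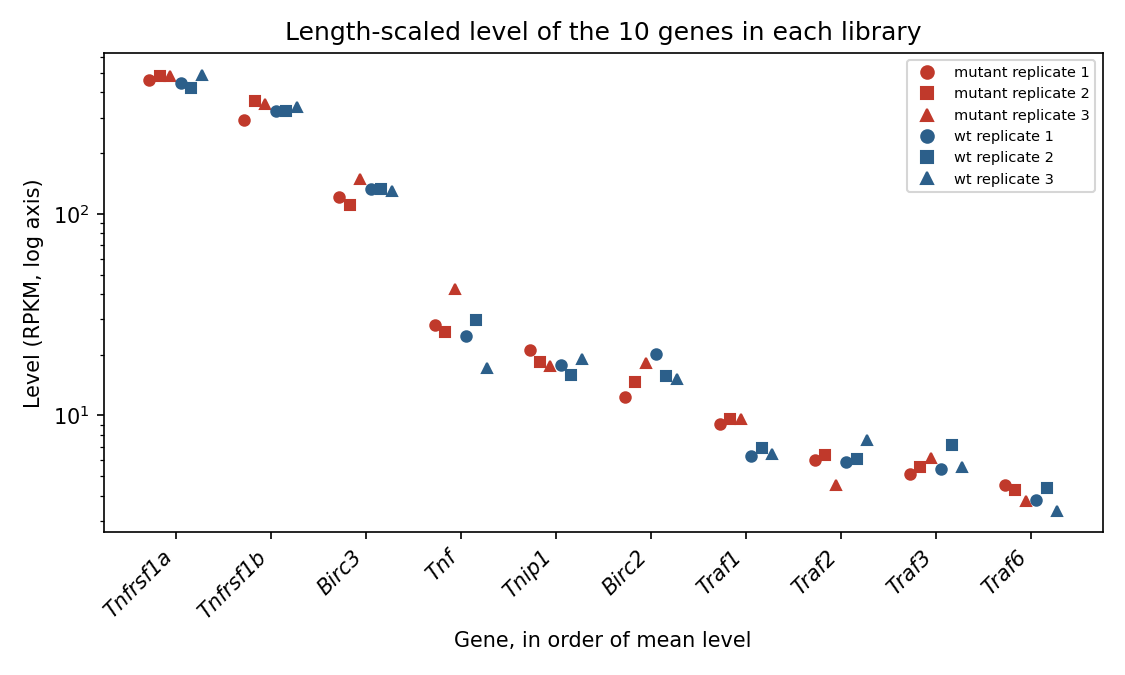
Level of each gene in each of the 6 libraries (RPKM, log axis), with genes ordered by mean level, red for mutant and blue for wt, and the shape giving the replicate. The receptor genes and Birc3 lie above 100 RPKM in all 6 libraries, and the TRAF genes below 10 RPKM.

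The comparison of mutant with wt asks whether targeting the TGF-beta receptor gene in neutrophils goes with other levels of these genes. Only the mutants carried the Cre and EGFP transgene, so its presence and the targeting cannot be told apart in this comparison. None of the 10 passed an adjusted p under 0.05 by edgeR's quasi-likelihood test, where 0.00634% of all tested genes did. At an unadjusted p under 0.05 there was 1 member, Traf1, against 6.73% of tested genes. DESeq2 called 1, again Traf1, against 0.983%, and limma-voom called 0. The groups did not overlap for 1 of the 10 members, against 13% of tested genes, so this share lay near the background. Log2 fold changes were positive for 6 members and negative for 4, with a median of 0.05, beside 0.01 over all tested genes. The 95% intervals of all 10 members lay inside a 2-fold change in either direction, as did those of 7881 of the 15774 tested genes. These shares are not matched on level. All 10 members average 10 CPM or more, as do 6904 of the tested genes, and intervals widen at low counts.

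Traf1 (ENSMUSG00000026875.14, minus strand of chromosome 2, 34941750 to 34961772 in GRCm38) encodes an adaptor that has a TRAF domain but, unlike the other members of its family, no RING domain. It was at 79.8, 84.5 and 85.1 CPM in mutant replicates 1 to 3 and at 55.6, 60.8 and 56.9 CPM in wt replicates 1 to 3. Every mutant library lay above every wt library, and the libraries of a group lay close together. The means were 83.1 ± 2.94 and 57.8 ± 2.71 CPM (SD, n = 3 each), a 1.44-fold ratio. The log2 fold change was 0.53 ± 0.11 (SE), and its 95% interval ran from 0.28 to 0.78. The unadjusted p was 0.00086 and the adjusted p 0.294 by edgeR, the 45th smallest p of all tested genes. DESeq2's Wald test gave an adjusted p of 0.0047. Over all alternatives the adjusted p ran from 0.0047 to 0.683 and the log2 fold change from 0.50 to 0.56. The spread within groups, 0.06 on the log2 scale, was small: of 1452 genes within 1.5-fold of its mean CPM, 3.10% had a smaller one.

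Tnf (ENSMUSG00000024401.14, minus strand of chromosome 17, 35199381 to 35202007) varied most. It was at 46.1, 42.6 and 69.8 CPM in mutants and at 40.5, 48.9 and 28.3 CPM in wt. Mutant replicate 3 was the highest and wt replicate 3 the lowest library, and the other 4 lay between 40.5 and 48.9 CPM with the groups mixed. The means were 52.9 ± 14.8 and 39.2 ± 10.3 CPM (SD, n = 3 each), and the log2 fold change was 0.43 ± 0.24 (SE), with a 95% interval from -0.09 to 0.96 (adjusted p = 0.810, edgeR). Without mutant replicate 3 the log2 fold change was 0.18, and without wt replicate 3 it was 0.24. The spread within groups was 0.39 on the log2 scale, and 96.7% of 1739 genes of like level (within 1.5-fold) had a smaller one. Each library held 907 to 2273 counts of the gene.

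**Figure D2:**
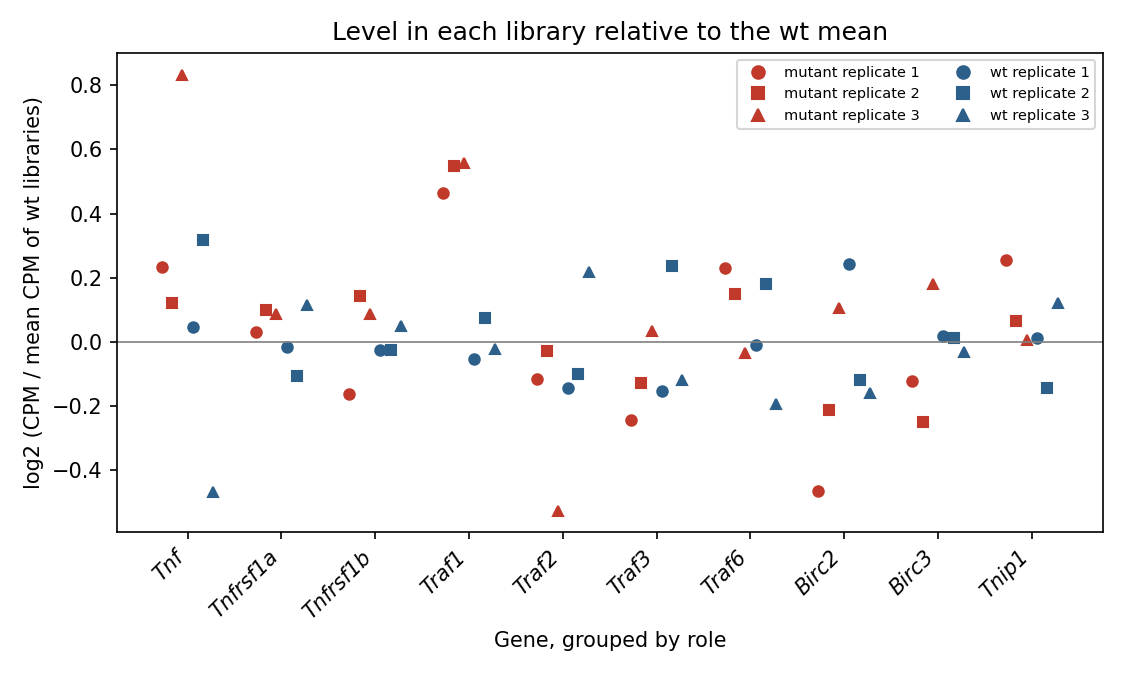
Level of each gene in each library as log2 of its CPM over the mean CPM of the 3 wt libraries (red mutant, blue wt, shape for replicate). For Traf1 the 3 mutant points lie apart from the 3 wt points, while for Tnf mutant replicate 3 and wt replicate 3 lie at the extremes and the remaining points are mixed.

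Marker lists of neutrophils and of other lung cells also varied between these libraries. Of the 12 lists, only the alveolar macrophage and the monocyte and interstitial macrophage sums did not overlap between groups. The sums for dendritic, T, NK, and B and plasma cells overlapped. So did those for eosinophils, basophils and mast cells, and for erythroid cells and platelets. Of the 12 neutrophil markers 3 had a higher mean in mutants. Against 6.21% of tested genes, 2 of the 12 did not overlap between groups and were lower in mutants. These were S100a8, at 965, 1505 and 972 CPM against 1686, 1750 and 1687 CPM in wt, and Cxcr2, at 1944 to 2134 CPM against 2472 to 2620 CPM. The sums of the 12 overlapped, at 16536 to 21920 CPM in mutants and 19556 to 21010 CPM in wt. The 10 alveolar macrophage markers, none of them at 0, summed to 644 to 1297 CPM in mutants and 374 to 583 CPM in wt, with mutant replicate 3 highest and wt replicate 3 lowest, as for Tnf. All 10 had a higher mean in mutants, and 3 did not overlap between groups, all higher, against 6.82% of tested genes. Chil3, which neutrophils also make, accounted for 372 to 999 CPM of the sum in mutants and 162 to 318 CPM in wt, and the other 9 markers summed to 272 to 299 and 212 to 265 CPM. Fibroblast markers summed to 2632 to 3842 CPM in mutants and 2275 to 2659 CPM in wt, with 9 of 10 higher by mean. Gsn alone, at 2053 to 2854 and 1765 to 2130 CPM, made up most of that sum, and without it the groups did not overlap, at 579 to 988 and 473 to 530 CPM. Of the 10 fibroblast markers 4 did not overlap between groups, all higher in mutants, against 6.82% of tested genes. Epithelial markers summed to 538 to 998 and 265 to 548 CPM, with 8 of 10 higher by mean and, again as for Tnf, mutant replicate 3 highest and wt replicate 3 lowest. Without overlap between groups, 5 of these 10 markers were higher and 1 was lower in mutants, against 6.82% and 6.21% of tested genes. The lower marker was Foxj1, near the floor at 0 to 0.430 CPM in mutants and 0.437 to 0.924 CPM in wt. The 10 monocyte and interstitial macrophage markers summed to 803 to 865 CPM in mutants and 879 to 903 CPM in wt, with 4 of 10 higher by mean. That gap rested on Csf1r, at 546 to 614 and 623 to 680 CPM, and the other 9 overlapped at 226 to 257 and 223 to 256 CPM. Of 8 endothelial markers 1 had a higher mean in mutants, and their sums overlapped at 1136 to 1420 and 1287 to 1560 CPM. Over the 12 marker lists the smallest exact permutation p was 0.1 (two-sided), the smallest that 3 against 3 libraries allow, and 0.48 after adjustment over the lists. Their part in the values of Traf1 and Tnf was not tested. In such bulk samples fewer cells of a type and less RNA per cell cannot be told apart.

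Among the members the 2 receptor genes differed least from library to library, with the highest library at 1.16 times the lowest for Tnfrsf1a and 1.24 times for Tnfrsf1b. Tnfrsf1a (ENSMUSG00000030341.17, plus strand of chromosome 6, 125349362 to 125362484) was at 1197, 1257 and 1245 CPM in mutants and 1159, 1090 and 1268 CPM in wt. The groups overlapped, with the highest and the lowest library both wt. Its log2 fold change was 0.07, with a 95% interval from -0.12 to 0.27 (adjusted p = 0.958, edgeR). Tnfrsf1b (ENSMUSG00000028599.10, minus strand of chromosome 4, 145213463 to 145246870) was at 1121, 1388 and 1333 CPM in mutants and 1234, 1234 and 1300 CPM in wt. Here the highest and the lowest library were both mutant, and the log2 fold change was 0.03 with an interval of -0.19 to 0.24 (adjusted p = 0.996). The upper bounds correspond to ratios of 1.20 for Tnfrsf1a and 1.18 for Tnfrsf1b, and the lower bounds to ratios of 0.921 and 0.878.

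Traf2 (chromosome 2, 25517982 to 25546940, minus strand) encodes the adaptor that recruits the cIAPs. It was at 30.6, 32.5 and 23.0 CPM in mutants and 29.99, 30.9 and 38.5 CPM in wt. The groups overlapped, with mutant replicate 3 lowest and wt replicate 3 highest, the reverse of Tnf. The log2 fold change was -0.21 ± 0.18 (SE; adjusted p = 0.934, edgeR). Traf3 (chromosome 12, 111166370 to 111267153, plus strand) was at 37.5, 40.6 and 45.4 CPM in mutants and 39.9, 52.3 and 40.9 CPM in wt, with a log2 fold change of -0.11 ± 0.16. Traf6 (chromosome 2, 101678429 to 101701669, plus strand) was at 35.6, 33.6 and 29.6 CPM in mutants and 30.1, 34.3 and 26.5 CPM in wt, with a log2 fold change of 0.12 ± 0.16. Both overlapped between groups, with adjusted p of 0.967 and 0.964.

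The ligase genes Birc2 (chromosome 9, 7818227 to 7837064, minus strand) and Birc3 (chromosome 9, 7848699 to 7873186, minus strand) lie beside each other and encode closely related proteins, of which cIAP1 is known to limit the level of cIAP2. Birc2 was at 56.4, 67.0 and 83.5 CPM in mutants and 92.0, 71.6 and 69.6 CPM in wt. Birc3 was at 607, 556 and 750 CPM in mutants and 669, 667 and 647 CPM in wt. Both overlapped between groups. For Birc3 the 3 wt libraries lay between the mutant libraries, with an SD of 12.2 CPM in wt and 100 CPM in mutants. The log2 fold changes were -0.17 ± 0.17 for Birc2 and -0.05 ± 0.11 for Birc3 (SE; adjusted p = 0.943 and 0.992, edgeR). Of all 75-base windows in their annotated transcripts, 0.875% for Birc2 and 3.88% for Birc3 also occur in transcripts of other genes, each other's included. Such windows made up 0.426% for Traf2 and 0 for the other 7 members. No exon of a member overlapped an exon of another gene in the count table.

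Tnip1 (chromosome 11, 54910785 to 54962917, minus strand), the gene with the clustered NF-kB matches shown above, was at 74.3, 65.1 and 62.5 CPM in mutants and 62.8, 56.4 and 67.7 CPM in wt. The groups overlapped, and the log2 fold change was 0.11 ± 0.13 (SE; adjusted p = 0.956, edgeR).

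**Figure D3:**
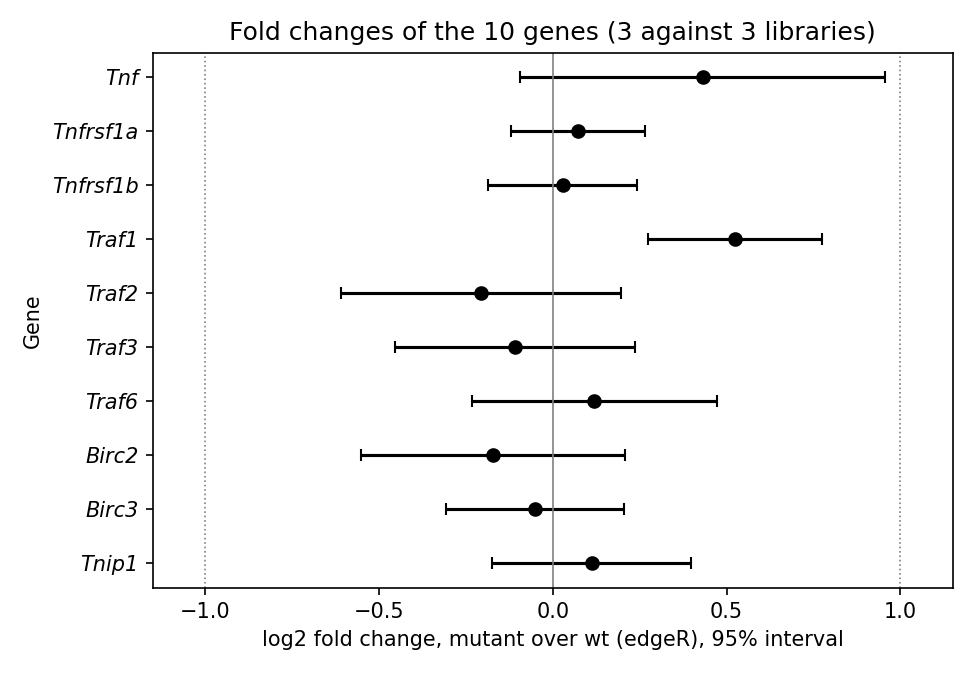
Log2 fold change of each gene, mutant over wt, with its 95% interval from edgeR's quasi-likelihood fit of 3 against 3 libraries. Dotted lines mark a 2-fold change in either direction, and all 10 intervals lie between them, with the interval of Traf1 above 0.

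Ratios of members that share a ligand, a partner or an origin were taken within each library. The ratio of Traf1 to Traf2, which form mixed trimers, was 1.509, 1.504 and 2.139 in mutants and 1.073, 1.138 and 0.854 in wt (RPKM over RPKM). All mutant ratios lay above all wt ratios, at 1.72 ± 0.365 and 1.02 ± 0.149 (SD, n = 3 each). The exact permutation p was 0.1 (two-sided), the smallest the design allows, and 0.3 adjusted over the 3 ratios. Tnfrsf1b over Tnfrsf1a was 0.704 ± 0.0600 in mutants and 0.729 ± 0.0367 in wt, with an exact permutation p of 0.7. Birc3 over Birc2 was 8.55 ± 1.17 and 7.89 ± 1.08, with an exact permutation p of 0.6. For these last pairs the groups overlapped and the difference was smaller than the spread between libraries.

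**Figure D4:**
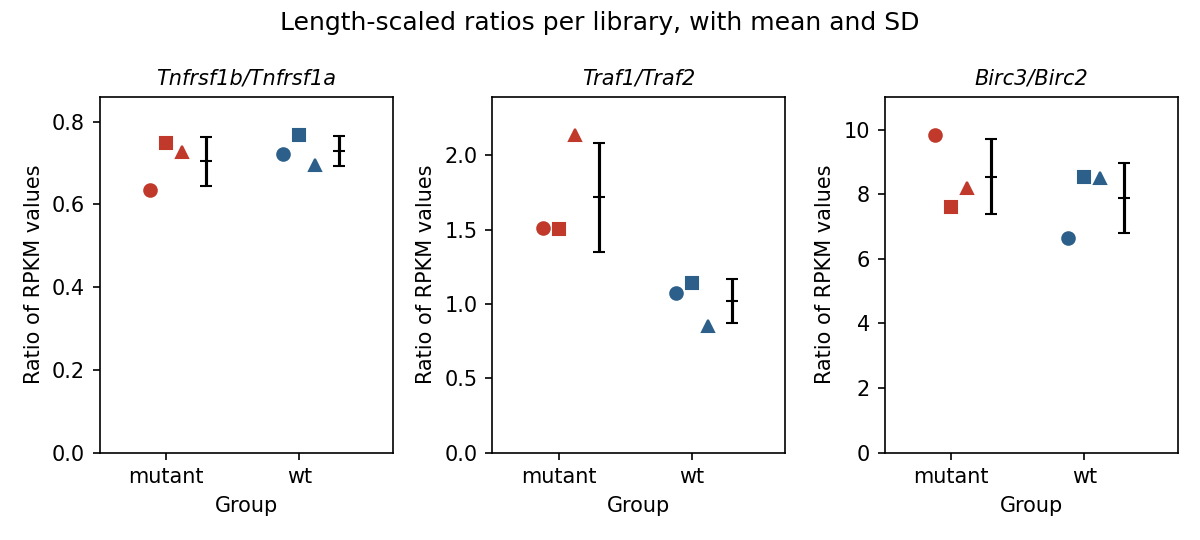
Ratios of length-scaled levels (RPKM) in each library for 3 pairs of genes, with the group mean and SD in black beside the points (n = 3 libraries each) and axes from 0. The Traf1 to Traf2 ratio is at least 1.504 in the 3 mutant libraries and at most 1.138 in the 3 wt libraries, and the other pairs overlap.

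The other genes of the pathway were taken from 7 lists by role, with 129 genes, of which 119 were tested. By edgeR's quasi-likelihood test 0 of them passed over all genes, while at an unadjusted p under 0.05 there were 7 on the higher and 3 on the lower side, against 3.51% and 3.22% of all tested genes. DESeq2 called 3 higher and 0 lower, against 0.514% and 0.469%, and limma-voom called 0. The groups did not overlap for 9 genes higher and 9 lower, against 6.82% and 6.21%. The lower genes, at an unadjusted p under 0.05 and without overlap, include Tnfsf8, which passed the filter on low counts through wt libraries alone. The median log2 fold change of the 119 genes was 0.04.

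The list of NF-kB-induced genes was written with earlier results of these data known, so its counts are only a description. Of its 26 tested genes 21 lay above 0 and 5 below 0 in log2 fold change, beside 7991 and 7783 of all 15774 tested genes. The median of the 26 was 0.26, beside 0.01 over all tested genes. At an unadjusted p under 0.05 there were 5 higher and 0 lower by edgeR, against 3.51% and 3.22% of all tested genes. The 3 genes that DESeq2 called were in this list. Il1a, an interleukin 1 receptor agonist, had a mutant mean of 92.6 ± 13.3 and a wt mean of 49.98 ± 11.6 CPM (SD, n = 3 each; likewise for the pairs of values that follow, mutant first). Nfkbie, an inhibitor that holds NF-kB in the cytoplasm, was at 383 ± 32.1 and 259 ± 42.5 CPM. The adhesion gene Icam1 was at 260 ± 44.4 and 183 ± 12.2 CPM. Their adjusted p were 0.276, 0.302 and 0.370 by edgeR, and 0.0010, 0.0087 and 0.034 by DESeq2. In this list the groups did not overlap for 5 genes higher and 1 lower in mutants, against 6.82% and 6.21% of tested genes. The lower gene was Nfkbia, another NF-kB-induced inhibitor, chosen after its values were seen. It was at 2889 to 3000 CPM in mutants and 3001 to 3419 CPM in wt, so the groups nearly touched. Its log2 fold change was -0.10 (adjusted p = 0.917, edgeR).

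The other ligand genes were mostly scarce. Exceptions were Ltb at 98.2 RPKM and Tnfsf14 at 90.1 RPKM (means of 6 libraries), both above Tnf at 28.1 RPKM. Of 16 listed, 10 were tested, with 3 values above 0, 7 below 0 and a median of -0.34. At an unadjusted p under 0.05 by edgeR 1 gene was lower, against 3.22% of all tested genes. This was Tnfsf8, the CD30 ligand gene, with 6, 0 and 0 counts in mutants and 51, 24 and 13 counts in wt (adjusted p = 0.584, edgeR). Tnfsf8 passed the filter on low counts through the wt libraries alone, where it is high, so its p is no support for a difference. Tnfsf13b, which encodes the B-cell factor BAFF, was at 31.8 ± 3.19 and 41.2 ± 10.4 CPM, and Tnfsf13 (APRIL) at 0.762 ± 0.398 and 0.293 ± 0.122 CPM. Of 24 other receptor genes 20 were tested, with 14 positive, 6 negative and a median of 0.06. Here 1 was higher at an unadjusted p under 0.05 by edgeR, against 3.51% of all tested genes. That gene was Tnfrsf19, at 12.9 ± 3.05 and 8.06 ± 2.43 CPM. The decoy receptor gene Tnfrsf22 was at 7.48 ± 3.48 and 4.61 ± 1.31 CPM, and the lymphotoxin receptor gene Ltbr at 66.1 ± 8.92 and 81.0 ± 19.0 CPM.

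Genes for TNF shedding and for control of Tnf mRNA, 15 tested, had 6 positive and 9 negative values with a median of -0.08. At an unadjusted p under 0.05 by edgeR 1 was lower, Zfp36l2, against 3.22% of all tested genes, and Zfp36 was not. Zfp36, whose product tristetraprolin speeds the decay of Tnf mRNA, had means of 2126 ± 370 CPM (mutant) and 2529 ± 187 CPM (wt). In single libraries it was at 2485, 2146 and 1747 CPM in mutants and 2714, 2340 and 2534 CPM in wt. Mutant replicate 3, with the highest Tnf, had the lowest Zfp36, whereas wt replicate 3, with the lowest Tnf, did not have the highest Zfp36, and a relation of the levels was not tested. The adjusted p of Zfp36 was 0.779 by edgeR. Its relative Zfp36l2 was at 113 ± 18.2 and 149 ± 33.1 CPM. Rhbdf1, an inactive rhomboid that carries the TNF protease to the surface, was at 6.68 ± 1.75 and 10.2 ± 3.18 CPM. The more abundant relative of Rhbdf1, Rhbdf2, was at 133 ± 21.2 and 142 ± 16.8 CPM, with groups that overlapped.

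The other receptor complex and kinase genes, 27 tested, had 13 positive and 14 negative values with a median of -0.01. At an unadjusted p under 0.05 by edgeR there were 1 higher and 1 lower, against 3.51% and 3.22% of all tested genes. The groups did not overlap for 1 gene higher and 4 lower in mutants, against 6.82% and 6.21%. Tank, an adaptor that binds TRAF proteins and the kinase TBK1, was at 27.7, 32.6 and 24.6 CPM in mutants and 23.2, 19.0 and 16.1 CPM in wt. Rnf31, the catalytic subunit of the linear ubiquitin ligase that acts on the TNF receptor complex, was at 121, 109 and 116 CPM in mutants and 145, 133 and 154 CPM in wt. The groups of both genes did not overlap, and their adjusted p were 0.595 and 0.566 by edgeR. Tab1, a partner of the kinase TAK1, was at 14.1 ± 3.72 and 9.33 ± 2.20 CPM.

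The 13 deubiquitinase and other restraint genes had 10 positive and 3 negative values with a median of 0.08, and 0 had an unadjusted p under 0.05 by edgeR and 0 were called by DESeq2. The groups did not overlap for 2 of these genes higher and 1 lower in mutants, against 6.82% and 6.21% of tested genes. The lower gene was Tnip2, a relative of Tnip1, at 54.2 ± 5.02 and 65.3 ± 5.93 CPM (adjusted p = 0.775, edgeR). Otud1 was at 2.54 ± 0.321 and 1.85 ± 0.748 CPM, and Otulin, which removes linear ubiquitin chains, at 5.15 ± 1.65 and 4.06 ± 1.11 CPM. The 8 caspase and necroptosis genes had 6 positive and 2 negative values with a median of 0.17, and likewise 0 at an unadjusted p under 0.05 and 0 by DESeq2. Diablo, which encodes the IAP antagonist Smac, was at 8.40 ± 1.36 and 5.62 ± 1.71 CPM, the death agonist Bid at 152 ± 13.5 and 169 ± 12.9 CPM, and the necroptosis kinase Ripk3 at 13.2 ± 2.06 and 10.97 ± 1.19 CPM.

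**Figure D5:**
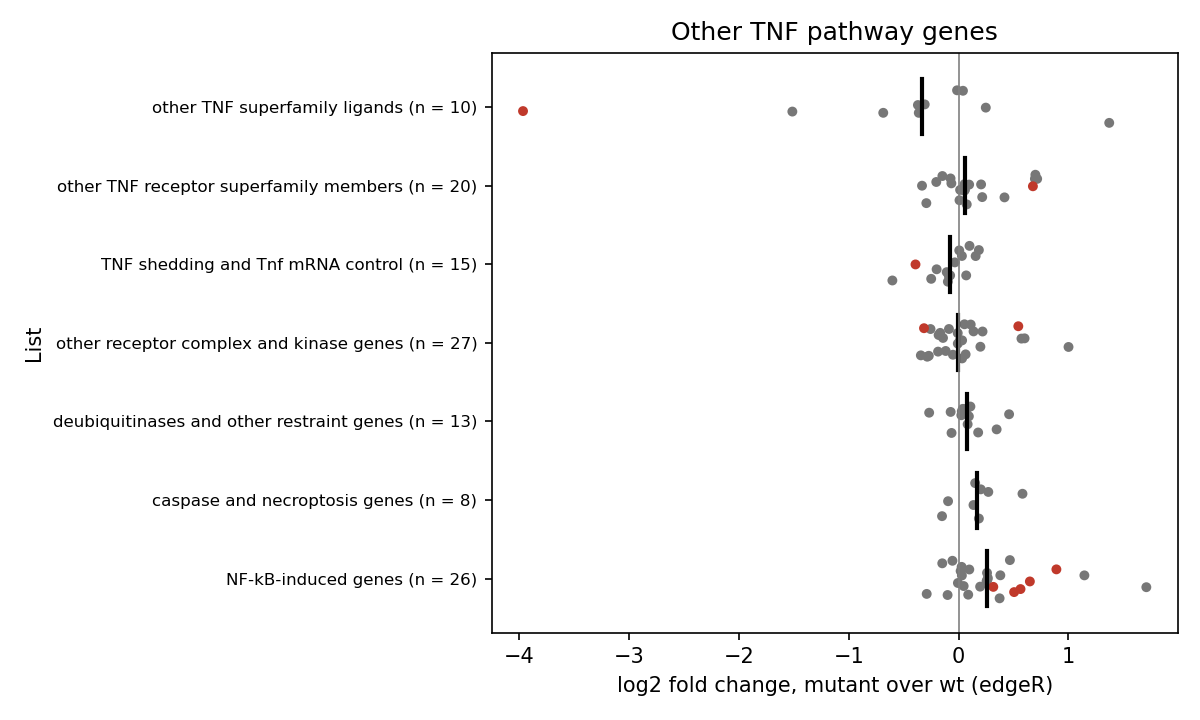
Log2 fold change (edgeR, mutant over wt) of each of the 119 tested pathway genes by list, with a black bar at the list's median and red points for an unadjusted p under 0.05. The NF-kB-induced genes have the highest median, 0.26, and hold 5 of the 10 red points. The point far to the left is Tnfsf8, with 0 to 6 counts in mutant libraries.

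The genes whose pattern over the 6 libraries was most like that of Tnf were found among 6903 other genes (mean CPM 10 or more), by the root mean square difference of log2 CPM centred on each gene's mean. The nearest was Clec4n, which encodes the fungal pattern receptor dectin-2, with a difference of 0.05, beside a spread of 0.38 for Tnf about its own mean. Clec4n was at 195, 187 and 306 CPM in mutants and 179, 198 and 129 CPM in wt. Its extremes were the same libraries as those of Tnf. Utp18 (0.07), Chka (0.13), Parl (0.13) and E330009J07Rik (0.15) followed, and 30 genes lay within 0.2. For Traf1, with a spread of 0.27, the nearest were Utp4 (0.04), Atxn1l (0.04), Smarca5 (0.05), Tfip11 (0.06) and Lrp1 (0.06), and 440 genes lay within 0.2. A gene with no variation would lie 0.27 from Traf1 and 0.38 from Tnf. The cut of 0.2 is therefore looser for Traf1, and the counts of 440 and 30 cannot be compared. With 6 libraries and so many genes, near patterns of this kind are a description of these libraries.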

How the data were processed

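RNA-seq was measured in 6 libraries, 3 per group. The authors deposited 1 table of raw, whole-number read counts per gene, not normalized, with the summed exon length of each gene per the file headers. STAR, featureCounts and the build GRCm38 were used per the submitters' processing notes, while their versions, the annotation release and any strand setting were not given in the sources used here. The cDNA was made from 2 ng of RNA by SMART-Seq v2 per the labels' protocols, which marks no strand and no molecules, so that counts include PCR copies. Symbols came from GENCODE M21: 55094 identifiers matched exactly, 300 without their version, and 93 kept no symbol.

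Genes were kept by filterByExpr (minimum count 10), scaled by TMM (factors 0.972 to 1.03) and tested with edgeR 4.0.16 in R 4.3.3 (quasi-likelihood, Benjamini-Hochberg at 5% over all 15774 tested genes). The script was tested on simulated data. Standard errors are the fold change over the square root of F. Log2 CPM used a prior count of 2. Alternatives were DESeq2 1.42.0, limma-voom (limma 3.58.1), edgeR's robust fit, other scalings and filters, and each library left out. Besides the 10 members, the genes named are the 3 with the smallest p of each pathway list and the 5 nearest in pattern to Tnf and Traf1. Ltb, Tnfsf14 and Rhbdf2 were added for their levels after the values were seen. The members and lists were chosen with earlier results of these data known. Replicate numbers follow accession order, and the labels name no pairs of libraries.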

Additional observations from a re-analysis of the deposited data

How the results depend on the processing

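Over all tested genes edgeR called 1 higher and 0 lower; without the filter on low counts it called 41 and 29, with only genes averaging 10 CPM or more 14 and 4, and DESeq2 called 81 and 74. Leaving out each library gave 0 to 1 higher and 0 to 1 lower. Of the 10 members DESeq2 called 1 higher, Traf1 (log2 fold change 0.52), and 0 were called under the other 12 alternatives. Of the pathway genes 2 were called higher without the filter, 1 with only genes averaging 10 CPM or more and 3 by DESeq2, and 0 with any library left out; the cause was not tested. The 2 were Il1a and Nfkbie, and the 1 was Il1a. With a library left out the log2 fold change changed sign for Tnfrsf1b (-0.037 to 0.12), Traf3 (-0.18 to 0.027) and Birc3 (-0.18 to 0.034), and the other 7 members kept theirs under all 13 alternatives. The log2 difference of the Traf1 to Traf2 ratio stayed between 0.57 and 0.83 with a library left out. For 22 pathway genes, those named for their p and Nfkbia, the same alternatives were added after seeing the data. There were 13 for 15 of them and 12 for the 7 that average under 10 CPM, and 0 changed sign. No paired analysis was run, because the labels call the wt mice littermates but do not say which libraries share a litter. The members had at least 749 counts in each library, but reads include PCR copies and the number of molecules behind them was not measured.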
